A study of Mus musculus with 2 samples.

Results

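Genes of the ubiquitin-proteasome system were described in growth-arrested mouse embryonic fibroblasts cultured with or without FGF2. Members were chosen by symbol, not by signal: all genes whose symbol starts with Psma, Psmb, Psmc, Psmd, Psme, Uba, Ube2, Ube3, Usp, Uchl or Otu followed by a digit or letter. The match of probe IDs to mouse gene IDs gave 86 members on 111 probes, out of 22569 genes in all, where a probe without a gene name counts as a gene of its own. Of the 86 members, 55 were detected on at least 1 array, 51 of them on both. A further 31 were detected on neither. A probe was taken as detected at a deposited detection score of at least 0.99, and the brightest detected probe stood for its gene.

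The FGF2 culture consisted of CD1 fibroblasts, primary cells that serve as feeders under stem cell cultures, kept for 24 h with 40 ng/ml of FGF2 in a serum replacement medium meant for human embryonic stem cells. The control culture was kept in that medium for 24 h without FGF2. Both cultures had been inactivated with mitomycin C, a DNA crosslinker, and replated on gelatine at 55000 cells per square centimetre, so both groups carry that treatment and there is no group without it. Each group was measured on 1 Illumina bead array. There were no replicates, no test was run, and every difference describes this pair of arrays.

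Cells mark proteins for destruction by attaching ubiquitin to them. An activating enzyme (E1) charges ubiquitin, a conjugating enzyme (E2) receives it, a ligase (E3) places it on the target, and deubiquitinating enzymes take it off again. The proteasome that degrades the marked protein is a barrel of alpha and beta subunits, the core, closed at its ends by a cap that binds and unfolds the target or by other activators. Interferons change its make-up by inducing alternative catalytic beta subunits and the activator subunits Psme1 and Psme2, a form known for producing peptides for MHC class I.

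Promoters of 3 members, each at an end of the range of its own list, are shown because they hold a motif linked to the control of these genes. The members were picked after their values were seen. Sequences run 5′ to 3′ on the gene's strand, from 250 bases before to 50 bases after the annotated start, as in RefSeq (GRCm38.p6). Capitals mark a match. Psmb6 (NCBI gene 19175, chr11:70525107-70525406, plus strand) had the highest ratio of the core, Uchl5 (NCBI gene 56207, chr1:143777028-143777327, plus strand) had the highest ratio of the deubiquitinating enzymes, and Psme1 (NCBI gene 19186, chr14:55578244-55578543, plus strand) had the lowest of the cap and activators.
Psmb6: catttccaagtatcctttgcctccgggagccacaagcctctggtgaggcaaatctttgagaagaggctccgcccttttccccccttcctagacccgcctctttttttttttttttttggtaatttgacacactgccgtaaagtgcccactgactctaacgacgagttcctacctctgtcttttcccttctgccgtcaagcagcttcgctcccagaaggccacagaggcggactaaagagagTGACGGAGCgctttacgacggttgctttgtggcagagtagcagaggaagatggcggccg
Uchl5: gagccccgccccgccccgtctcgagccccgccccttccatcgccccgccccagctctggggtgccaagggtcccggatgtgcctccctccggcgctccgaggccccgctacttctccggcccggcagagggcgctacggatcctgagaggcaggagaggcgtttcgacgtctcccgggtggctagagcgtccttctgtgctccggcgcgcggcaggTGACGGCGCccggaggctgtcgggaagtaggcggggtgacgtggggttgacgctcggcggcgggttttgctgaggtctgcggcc
Psme1: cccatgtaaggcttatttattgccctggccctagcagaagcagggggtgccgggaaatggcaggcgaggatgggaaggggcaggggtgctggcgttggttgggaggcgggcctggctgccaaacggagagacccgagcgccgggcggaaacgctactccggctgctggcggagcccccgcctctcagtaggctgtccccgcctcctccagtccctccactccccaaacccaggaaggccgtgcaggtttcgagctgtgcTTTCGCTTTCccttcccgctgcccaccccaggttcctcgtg

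The first motif searched was TGACNNNGC, or GCNNNGTCA on the other strand, the core of the antioxidant response element read by NRF1 (gene Nfe2l1) and NRF2 (gene Nfe2l2), which are known to drive proteasome genes. The second was a pair of GAAA half-sites 2 bases apart, or of TTTC on the other strand, the core of the interferon-stimulated response element. Promoters of 44 of the 55 detected members were in the RefSeq table. The first motif occurred in 13 of these 44 (29.5%), against 14.0% of all 27025 genes in the table and 17.6% of the 2613 named genes detected on the arrays. Its share was 2 of 7 for the core, 3 of 10 for the cap and activators, 2 of 16 for the activating and conjugating enzymes and 6 of 11 for the deubiquitinating enzymes. The 6 were Otud3, Uchl5, Usp10, Usp20, Usp32 and Usp36, of which Usp20 had the lowest ratio of its list and Uchl5 the highest. The second motif occurred in 4 members (9.09%), namely Psmb3, Psmd9, Psme1 and Usp49. Its share was 3.99% of all genes in the table and 3.29% of the named genes detected on the arrays. Their log2 ratios went both ways, with 0.16 in Psmb3 and -0.35 in Psme1. Neither Psmb10, the lowest of all members, nor Psmd11, with the highest bound, was among the members with a match to either motif. In no member did matches to the 2 motifs overlap. A match describes these letters only, and no match says nothing about either factor.

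Signals of both arrays were quantile normalized, and a log2 ratio is that of the FGF2 signal over the control signal. None of the 51 members detected on both arrays reached a 1.5-fold difference in either direction. The other 4 have bounds only, the largest of them at least 1.49-fold in Psmd11, so a larger difference is possible there. Among all 8384 detected genes, 4.34% passed this limit upwards with FGF2 and 5.58% downwards, and 1.37% and 1.85% passed 2-fold. Among the 2006 genes with a brighter signal of at least 1000, in which ratios spread more widely, the shares were 8.47% and 10.3%. The members' log2 ratios ran from -0.40 in Psmb10 to a bound of 0.58 in Psmd11. At a lower limit, 9 of the 55 members, Psmd11 with its bound among them, had a signal at least 25% higher with FGF2 and 2 had one at least 20% lower, against 13.3% and 13.4% of all detected genes. The 9 were Psmd11, Psmd8, Psmc1, Psmd2, Ube2z, Ube2f, Ubald2, Uchl5 and Usp10, and the 2 were Psmb10 and Psme1. In RNA of whole cultures, fewer cells of a type and less RNA per cell cannot be told apart.

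**Figure D1:**
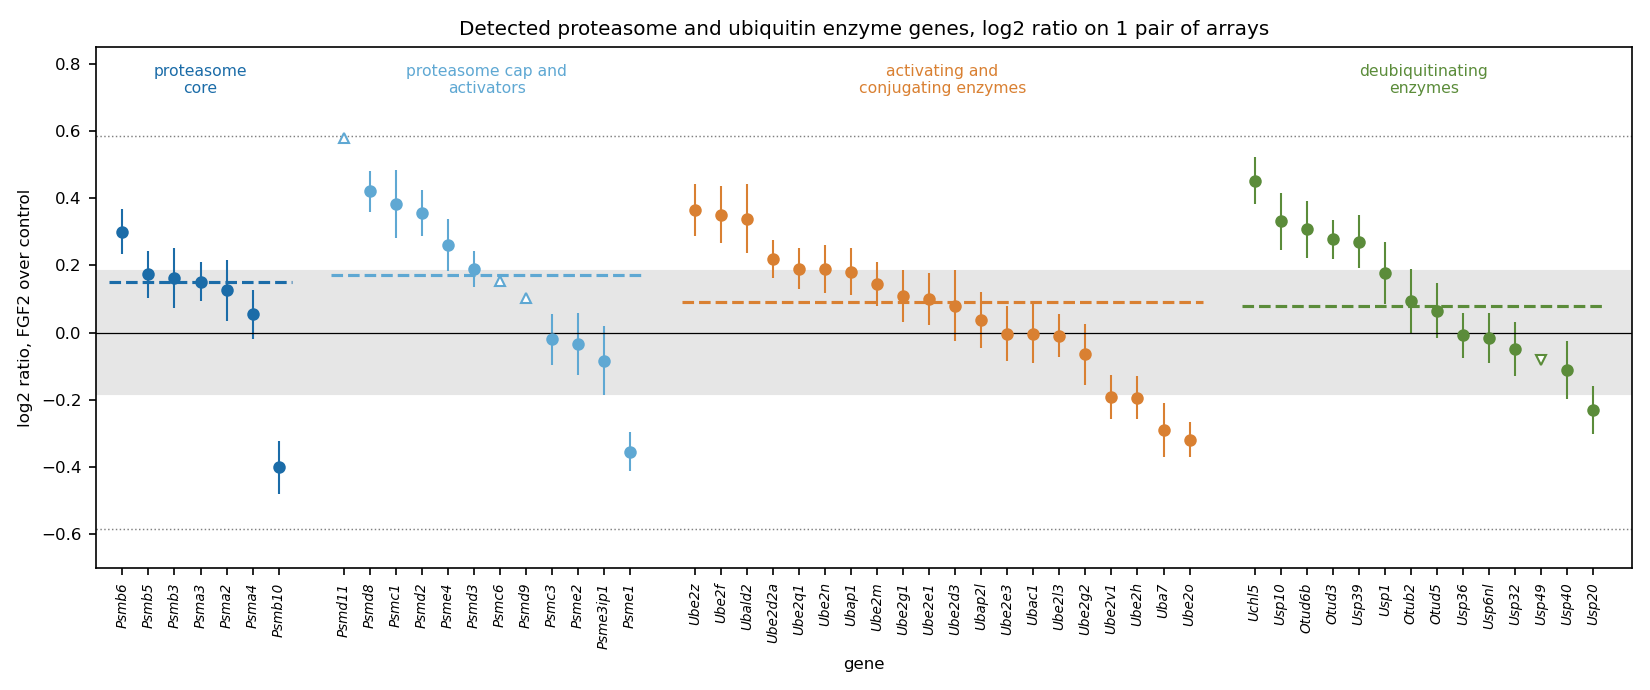
Log2 ratio of FGF2 over control (vertical axis) for 53 of the 55 detected members, grouped by list and ordered by ratio. Bars are the combined bead error of the 2 arrays, open triangles are bounds for genes detected on 1 array, dashed lines are list medians, the grey band is 0.18 on either side of 0, and dotted lines mark 1.5-fold. No member with a measured ratio lies beyond the dotted lines, and Psmb10 and Psme1 lie apart from the rest of their lists at -0.40 and -0.35.

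Error was measured in 2 ways. The combined bead error of a member's log2 ratio had a median of 0.078 and ran from 0.052 to 0.11. Different probes of the same gene, compared in 299 pairs from 243 named genes, gave a wider SD of 0.18 for a log2 ratio. Of the 51 members detected on both arrays, 26 lay within 0.18 of 0, 18 lay above it and 7 below. With bounds included, the counts were 29, 19 and 7 of 55 members, against 4374, 2105 and 1905 of all 8384 detected genes. Neither error covers differences between cultures, which a single array per group cannot show.

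The 4 lists had small positive medians. The median log2 ratio was 0.15 for the 7 detected core members, 0.17 for the 12 of the cap and activators, 0.09 for the 22 activating and conjugating enzymes and 0.08 for the 14 deubiquitinating enzymes. The median of all detected genes was 0.01. Ratios were above 0 for 6 of 7 core members, 8 of 12 cap and activator members, 14 of 22 activating and conjugating enzymes and 8 of 14 deubiquitinating enzymes, together 36 of 55 (65.5%), against 52.3% of all detected genes. Detection on 1 array alone fixes the sign of 4 of the 55, 3 cap genes above 0 and 1 deubiquitinating enzyme below it. Over members detected on both arrays, 33 of 51 were above 0, against 52.6% of all genes detected on both. With the signals as deposited, without further scaling between the arrays, 35 of 55 members were above 0, against 41.1% of all detected genes. The difference between the lists was not tested.

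**Figure D2:**
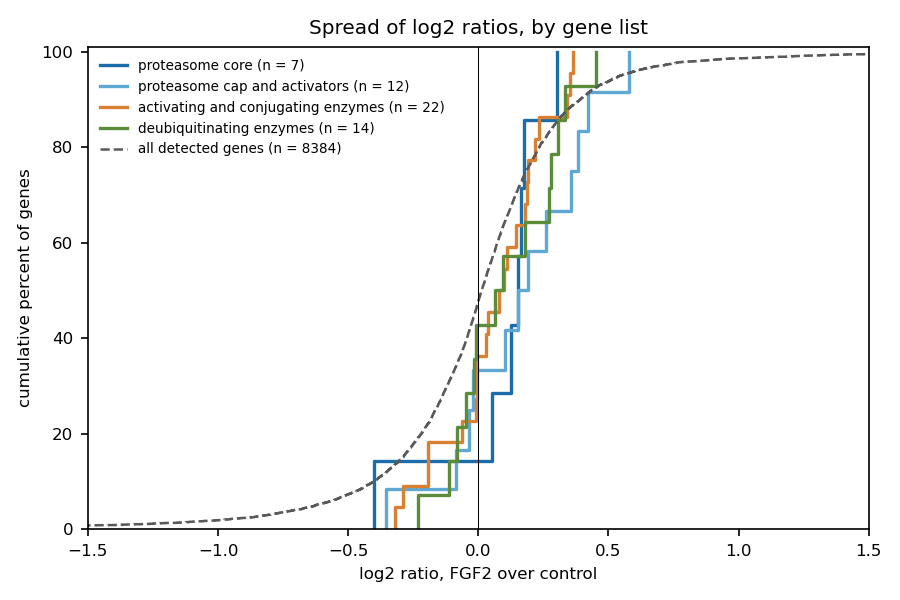
Cumulative percent of genes (vertical axis) by log2 ratio of FGF2 over control (horizontal axis) for the 4 lists and for all 8384 detected genes; genes beyond 1.5 in either direction are outside the axis. The lists span a narrower range than all genes, but ranges of sets so unlike in size cannot be compared. Of the 4 lists, the curve of the cap and activators reaches farthest right, to 0.58, which is the bound of Psmd11. Over members detected on both arrays, the highest ratio was 0.42 in that list and 0.45 in the deubiquitinating enzymes.

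The alpha ring, which gates the entrance to the core, was represented by Psma2, Psma3 and Psma4. Psma2 had a normalized signal of 11592 on the FGF2 array and 10627 on the control array, a log2 ratio of 0.13. Psma3 had 9003 with FGF2 and 8103 in the control (0.15), and Psma4 had 2863 and 2758 (0.05). All 3 ratios were above 0 and within 0.18 of it, and 52.3% of all detected genes were above 0. Psma5 was not detected, with scores of 0.91 on the FGF2 array and 0.78 on the control array.

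In the beta ring, which holds the protein-cutting sites, the 3 detected constitutive members had ratios above 0 and the 1 detected interferon-inducible member had a ratio below 0. Psmb6, the caspase-like catalytic subunit, had a signal of 5851 with FGF2 and 4750 in the control, a log2 ratio of 0.30 with a bead error of 0.068. Psmb5, the chymotrypsin-like catalytic subunit, had 1113 and 986 (0.17), and the structural subunit Psmb3 had 4358 and 3892 (0.16). Psmb10, the interferon-inducible subunit that takes the place of the trypsin-like Psmb7, had a signal of 471 with FGF2 and 622 in the control. It was 1.32-fold lower, a log2 ratio of -0.40 with a bead error of 0.078. Psmb8, the inducible counterpart of Psmb5, was below the detection level on both arrays, with scores of 0.84 with FGF2 and 0.97 in the control. Psmb10 was the only 1 of the 7 detected core members with a ratio below 0. Leaving out Psmb8 and Psmb10, a choice made after the values were seen, therefore fixed the sign of the other 6. Their ratios ran from 0.05 to 0.30.

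**Figure D3:**
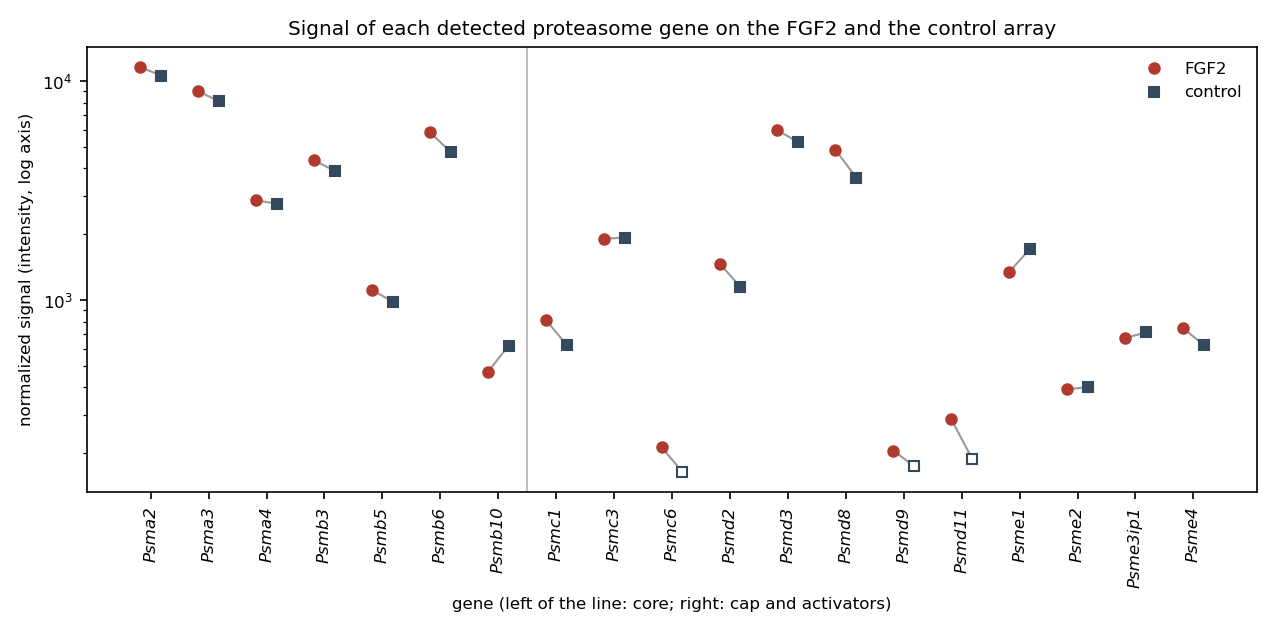
Normalized signal (intensity, log axis) of each detected proteasome gene on the FGF2 array (circles) and the control array (squares), by family; open symbols mark an array on which the gene was not detected. In most pairs the FGF2 symbol is the higher one, an order that detection fixes where the control symbol is open. Of all detected genes, 52.3% had a ratio above 0. The control symbol is higher for Psmb10 (471 against 622) and Psme1 (1346 against 1721), and by less for Psmc3, Psme2 and Psme3ip1. Heights of different genes rest on different probes and are not comparable.

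The cap's base holds a ring of ATPases that unfold the target. Of these, Psmc1 had a signal of 815 with FGF2 and 625 in the control and was 1.30-fold higher, a log2 ratio of 0.38 with a bead error of 0.10. Psmc3 had 1907 with FGF2 and 1934 in the control, a log2 ratio of -0.02 that turned positive with median scaling and in the authors' processed table. Psmc6 was detected with FGF2 only, at 213, and its bound was 0.15. Of the pair detected on both arrays, Psmc1 lay beyond 0.18 and Psmc3 within it.

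Of the genes with the prefix Psmd, 3 were detected on both arrays, Psmd2, Psmd3 and Psmd8, and 2 with FGF2 only. The 3 had ratios above 0 on their brightest probes, 2 of them by at least 25%, limits that 52.3% and 13.3% of all detected genes passed. Psmd8, a lid subunit, had a signal of 4864 with FGF2 and 3634 in the control and was 1.34-fold higher, a log2 ratio of 0.42 with a bead error of 0.060. Psmd2, which docks ubiquitin-carrying shuttle proteins and Usp14, had 1472 and 1151 on its brighter probe (0.36), but its second detected probe gave 239 and 246, a log2 ratio of -0.04. Psmd3, another lid subunit, had 5993 with FGF2 and 5255 in the control (0.19).

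Psmd11, a lid subunit that helps to hold the cap on the core, was detected with FGF2 only. Its signal was 286 with FGF2 and 189 in the control, where the detection score was 0.986, and it was at least 1.49-fold higher. As a log2 ratio that bound was 0.58, and it was 0.49 with the signals as deposited. The bound in the authors' processed table, in which background has been removed, was at least 2.61-fold. The second Psmd11 probe was not detected on either array, at deposited signals of 160 with FGF2 and 154 in the control. Psmd9, an assembly chaperone of the base, was also detected with FGF2 only, at 206, with a bound of 0.10. Detection on the FGF2 array alone fixes the sign of the bounds of Psmd11, Psmd9 and Psmc6. Over members detected on both arrays, 5 of 9 in the cap and activators had ratios above 0, against 52.6% of all genes detected on both.

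The activators that can replace the cap went both ways. Psme1, the alpha subunit of the interferon-inducible activator, had a signal of 1346 with FGF2 and 1721 in the control and was 1.28-fold lower, a log2 ratio of -0.35 with a bead error of 0.057. A second Psme1 probe gave 855 and 1139, a log2 ratio of -0.41. Psme2, the beta subunit of the same activator, had 392 with FGF2 and 402 in the control, a log2 ratio of only -0.03. Psme4, an activator of the nucleus known for a part in histone degradation, had 748 and 624 (0.26). Psme3ip1, which carries the prefix because its protein binds Psme3, had a log2 ratio of -0.08. Without the Psme members, a choice made after the values were seen, 4 of 5 cap members detected on both arrays were above 0. The share among all genes detected on both was 52.6%. With the 3 bounds, whose sign is fixed, the median of the 8 cap members was 0.27.

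Of the E1 enzymes, only Uba7 was detected. It activates ISG15, a ubiquitin-like protein induced by interferon, and had a signal of 345 with FGF2 and 421 in the control. It was 1.22-fold lower, a log2 ratio of -0.29 with a bead error of 0.081, and -0.44 in the authors' processed table. Ube2l6, the E2 that receives ISG15 from Uba7, was not detected on either array. Of the other E1 genes with a named probe, Uba6, which charges ubiquitin, was not detected and neither was the Y-linked Uba1y. Psmb8, Psmb10, Psme1, Psme2, Uba7 and Ube2l6, the 6 members known to be interferon-inducible, were grouped after their values were seen. The 4 that were detected had log2 ratios below 0, as had 3988 of all 8384 detected genes, and that of Psme2 was within 0.18.

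Other members with the Uba prefix are not E1 enzymes. Ubac1 had signals of 496 with FGF2 and 497 in the control, and Ubap1 and Ubap2l had log2 ratios of 0.18 and 0.04. Ubald2 had 268 with FGF2 and 212 in the control and was 1.26-fold higher. Its log2 ratio of 0.34 became 0.76 in the authors' processed table. In all, 10 of the 86 members carry a prefix by name only, and 7 of these were detected.

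Of 22 E2 genes with a named probe, 16 were detected, all on both arrays, with a median log2 ratio of 0.10. Ube2z, an E2 charged by Uba6, had a signal of 409 with FGF2 and 317 in the control and was 1.29-fold higher (log2 ratio 0.37, bead error 0.078). Ube2f, an E2 for the ubiquitin-like NEDD8, had 1202 and 942 and was 1.28-fold higher (0.35). Ube2m, the other E2 for NEDD8, had 809 and 732 (0.14). All 3 ratios were positive, and that of Ube2m was within 0.18.

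The lowest E2 ratio was that of Ube2o, a large enzyme that acts as E2 and E3 at once, with a signal of 1422 with FGF2 and 1774 in the control. Its log2 ratio was -0.32 with a bead error of 0.052. Ube2h had 1006 with FGF2 and 1151 in the control (-0.19). Ube2v1, a catalytically inactive partner of Ube2n, had 857 and 978 (-0.19). Ube2n itself, which builds non-degradative chains with that partner, had 300 and 263, a log2 ratio of 0.19, so the partners had ratios of opposite sign.

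Several E2 enzymes work with many ligases. Of these, Ube2d2a had 1422 with FGF2 and 1222 in the control on its brighter probe (log2 ratio 0.22), and 834 and 854 on the second (-0.03). Ube2d3 had 243 and 230 (0.08), and Ube2l3, which works with ligases of the parkin kind, had 3046 and 3067 (-0.01). Ube2d3 turned negative with the signals as deposited, and Ube2l3 turned positive there, with median scaling and in the authors' processed table. Ube2d genes are close in sequence, so a probe may read more than 1 of them. Ube2g1 and Ube2g2, E2 enzymes of degradation at the endoplasmic reticulum, had log2 ratios of 0.11 and -0.06. Ube2e1 and Ube2q1 had 0.10 and 0.19, and Ube2e3 had signals of 307 with FGF2 and 308 in the control. Ube2e1 gave -0.07 on its second probe, and Ube2e3 turned positive with median scaling.

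E2 genes not detected were Ube2b, Ube2c, Ube2dnl1, Ube2j2, Ube2l6 and Ube2v2. Ube2c, the E2 of the anaphase-promoting complex that is used in mitosis, lay just outside the detection level with FGF2 at 0.981, and at 0.852 in the control. Just inside it was Ube2g2, at 0.992 with FGF2 and 0.996 in the control. No gene of the Ube3 ligases had a named probe.

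Among the deubiquitinating enzymes, Uchl5 had the highest ratio. Uchl5 is a protease that docks on the proteasome cap, and its signal was 437 with FGF2 and 319 in the control. It was 1.37-fold higher, a log2 ratio of 0.45 with a bead error of 0.070, and 1.65-fold higher in the authors' processed table. Adrm1, the cap protein that recruits Uchl5, had 519 with FGF2 and 431 in the control, a log2 ratio of 0.27; it is no member and was picked after its value was seen. Uchl3 and Uchl4 were not detected.

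All 4 detected members of the OTU family had ratios above 0, as had 52.3% of all detected genes. Otud6b had a signal of 438 with FGF2 and 354 in the control (log2 ratio 0.31), and Otud3 had 363 and 300 (0.28). Otub2 had 216 and 202 (0.09), and Otud5 had 765 and 731 (0.07). The first pair lies beyond 0.18 and the second pair within it.

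Of 23 genes with the prefix Usp, the largest family of deubiquitinating enzymes, 9 were detected. Ratios were above 0 in 3 of these 9, against 52.3% of all detected genes. Usp10 had a signal of 407 with FGF2 and 323 in the control and was 1.26-fold higher (log2 ratio 0.33, bead error 0.086). Usp39, a splicing factor that lacks protease activity, had 1237 and 1025 (0.27). Usp1, which removes ubiquitin from PCNA and from the Fanconi anaemia protein FANCD2 in crosslink repair, had 519 and 459 on its brightest probe (0.18). Its second detected probe, detected in the control only, gave a bound of -0.15, a sign that detection on 1 array fixes.

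The other 6 were below 0. Usp20 had 694 with FGF2 and 814 in the control (log2 ratio -0.23, bead error 0.072), the only one of the 5 with a measured ratio that lay beyond 0.18. Usp40 had 200 and 216 (-0.11), Usp32 had 380 and 393 (-0.05) and the nucleolar Usp36 had 265 and 266 (-0.01). Usp49, which acts on histone H2B, was detected in the control only, at 204, with a bound of -0.08. Usp6nl is a GTPase-activating protein and not a protease, and stood at -0.02. Usp genes not detected were Usp9x, Usp9y, Usp11, Usp12, Usp13, Usp15, Usp17la, Usp17lb, Usp17lc, Usp33, Usp42, Usp45, Usp46 and Usp53. Members not detected elsewhere were Otud7b, Otulinl, Ubald1, Ubash3a and Ubash3b.

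Of the members, 7 had 2 detected probes, and in all 7 the brightest probe had the higher ratio. The second Usp1 probe has a bound, and of the 6 genes whose probes were each detected with and without FGF2, the brightest was higher in 6. Among 237 other named genes with at least 2 probes detected on both arrays this was so in 51.9%. Probes of a gene differed by 0.02 in Ube2g1, 0.04 in Ubap2l, 0.06 in Psme1, 0.17 in Ube2e1, 0.25 in Ube2d2a and 0.40 in Psmd2. In Usp1 the difference was 0.33, which rests on the bound of its second probe. With the mean over detected probes the median of all members was 0.09, against 0.11 with the brightest probe. Psme1 was the one gene of the 7 in which both probes lay beyond 0.18 on the same side.

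**Figure D4:**
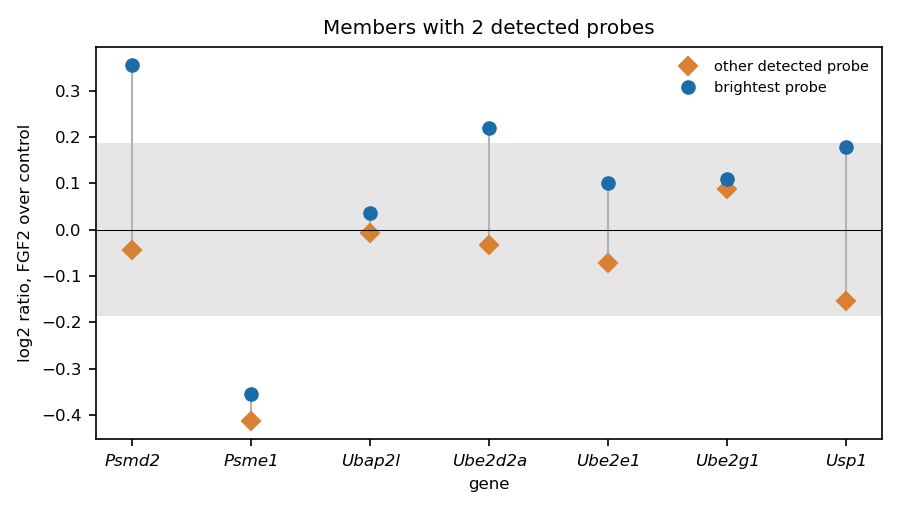
Log2 ratio of FGF2 over control for each detected probe (vertical axis) of the 7 members with 2 detected probes; circles are the brightest probe, diamonds the other one, and the grey band is 0.18 on either side of 0. The probes of Psme1 lie together at -0.35 and -0.41, whereas those of Psmd2 lie at 0.36 and -0.04. The diamond of Usp1 is a bound.

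Of 79 other genes of the pathway on a list of ubiquitin genes, chaperones, ligases and regulators, 38 had a named probe and 30 were detected. None was 1.5-fold apart, a limit that 4.34% of all detected genes passed upwards and 5.58% downwards. The median log2 ratio was 0.06, and 17 of 30 were above 0, against 52.3% of all detected genes. At least 25% higher were 3 genes, among them Fau (0.40), a ubiquitin-like fusion protein, and the protease Senp2 (0.35). Of all detected genes, 13.3% passed that limit. At least 20% lower were 3 genes, among them the ligase subunit Fbxw7 (-0.46) and Nfe2l1 (-0.32), which encodes NRF1. Here the share of all detected genes was 13.4%. Nfe2l1 lay right at the limit and missed it with median scaling (-0.23) and in the authors' processed table (-0.25). Of the ubiquitin genes, Ubb had a signal of 39847 with FGF2 and 36386 in the control, a log2 ratio of 0.13. Rps27a, ubiquitin fused to a ribosomal protein, had 26466 and 21175, a log2 ratio of 0.32. This was just short of 25% higher, and the log2 ratio was 0.59 in the authors' processed table. The list shares 1 gene with the members.

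The authors' processed table, which differs in background, scaling and the lack of quantile normalization, gave larger ratios for some members. There, 4 members were at least 1.5-fold higher, against 11.2% of all detected genes, and none was 1.5-fold lower, against 11.3%. The 4 were Psmd11, Ubald2, Uchl5 and Ube2z. The medians there were 0.24 for the core, 0.35 for the cap and activators, 0.17 for the activating and conjugating enzymes and 0.17 for the deubiquitinating enzymes, against 0.04 for all detected genes. Psmb10 had a log2 ratio of -0.52 and Psme1 one of -0.35 in that table.

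**Figure D5:**
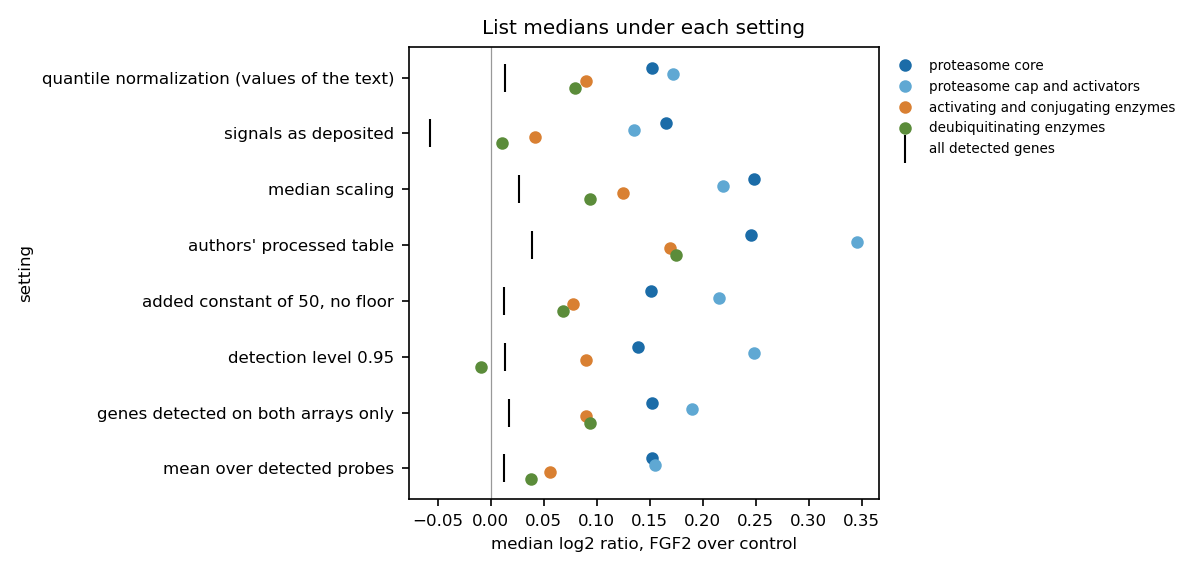
Median log2 ratio of FGF2 over control (horizontal axis) of each list under 8 settings (vertical axis); the black mark is the median of all detected genes under that setting. The medians of the core lie between 0.14 and 0.25 and those of the cap and activators between 0.14 and 0.35, while that of the deubiquitinating enzymes falls to -0.01 at a detection level of 0.95.

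On the whole arrays, 33.8% of 24044 probes were detected with FGF2 and 34.1% in the control. All 4 fibroblast markers with a named probe were detected, Col1a1, Col1a2, Col3a1 and S100a4, with a summed signal of 7077 with FGF2 and 13727 in the control. They went both ways: Col1a1 was 3.38-fold lower, while S100a4 had 2562 with FGF2 and 1527 in the control. Of 4 macrophage and blood markers only Lyz2 was detected, at 206 with FGF2 and 224 in the control, while Ptprc, Cd68 and Csf1r were not. Of 2 endothelial markers Emcn was detected (302 and 268) and Pecam1 was not. Of 3 epithelial markers Krt18 and Cldn4 were detected, with a summed signal of 608 with FGF2 and 408 in the control, and Krt8 was not. Krt18 was 1.88-fold higher and Cldn4 had a log2 ratio of 0.13. The part of other cells in the members' ratios was not tested.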

How the data were processed

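Total RNA of both cultures (300 ng) went through linear amplification (6 h of in vitro transcription) with a Cy3 label, per the labels' protocols. BeadStudio 1.0 was used, per the submitters' processing notes. Per the file headers, each deposited array file gives for each of 24044 probes its mean intensity, the spread between beads and a detection score, which is a fraction from 0 to 1. These intensities were not background-subtracted, as undetected probes had median signals of 133 (FGF2) and 141 (control). These medians cannot show whether the intensities had been scaled. The authors' processed table holds intensities that equal the FGF2 signal minus 131.5, times 1.05, and the control signal minus 139.2, with a value exactly where the score was at least 0.99. The origin of the factor is not given in any source used here.

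Numbers of at least 5 digits after "scl" and 1 or 2 zeros in a probe ID were read as NCBI gene IDs (8884 of 9523 matched, 93.3%; GRCm38.p6). The files do not state this match, and every gene name rests on it. Signals were quantile normalized and raised to the lowest detected signal (193.1 for FGF2, 191.7 for the control). A gene detected on 1 array has a bound. The probe SD is the root mean square difference of probe pairs divided by the square root of 2. Named were all detected Psm members, the extremes, brightest, 1-array and several-probe members of the other families, and related genes 25% higher, 20% lower or brightest; further detected members were named after their values were seen, though some genes are not reported here. Members and lists were chosen with earlier results of these data known. The scripts were tested on simulated data. Software: Python 3.11.15, numpy 2.4.6, pandas 2.3.3, matplotlib 3.10.9.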

Additional observations from a re-analysis of the deposited data

How the results depend on the processing

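With 1 array per group, no replicate could be left out, and 1 array of each kind limits every value. No paired analysis was possible because each group has 1 array. Under 7 other settings the medians stayed within 0.1 of their values in the report and kept their sign, with these exceptions. In the authors' processed table the median was 0.35 for the cap and activators and 0.23 for all members, and 4 members were at least 1.5-fold higher (1 in the cap and activators, 2 activating and conjugating, 1 deubiquitinating) in place of 0. At a detection level of 0.95 the median of the deubiquitinating enzymes was -0.0087, with 17 in place of 14 members, and Psmd11, then detected on both arrays, made 1 member of the cap, and of all members, 1.5-fold higher. With genes detected on both arrays only, 5 cap and activator members were above 0 in place of 8, as 3 bounds left. The counts at least 25% higher were 4 for the cap and activators, 3 activating and conjugating, 2 deubiquitinating and 9 in all. The counts at least 20% lower were 1 for the core, 1 for the cap and activators and 2 in all. At 2-fold all counts were 0. Settings added after the data were seen changed the median of the cap without Psme to 0.27. Among single genes, the authors' processed table moved 10 of 55 by more than 0.18, median scaling 1 and the mean over probes 1 (Psmd2, to 0.16). Ratios that changed sign under a scaling or in that table were at most 0.08 in size, those of Psmc3, Ubac1, Ubap2l, Ube2d3, Ube2e3 and Ube2l3. The cause of these changes was not tested beyond what is stated.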
